A study of Gallus gallus with 21 samples.

Results

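The mRNAs described here were higher at embryonic day 12 (E12) than at any of the 6 later ages analysed in the cerebrum of the chicken. They are 150 of the 14558 mRNAs of the series, and 11001 of these lie on the chromosomes considered, 1 to 15 and 17 to 20. The members were chosen by their log2(FPKM+1) values, and a row qualified when each E12 library exceeded each of the 15 other libraries and the E12 mean was at least 0.5 above the next highest stage mean on the log2(FPKM+1) scale. FPKM counts fragments per length of transcript, relative to all mapped fragments in the library. On these chromosomes 277 mRNAs met the conditions, and the 150 with the largest distance to the next stage, called the margin here, were taken. Everything that sets E12 against a later stage was used by this choice and is given as a description with no test.

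In the series, cerebral RNA from female Tibetan chickens was sequenced, with 1 bird per library and ribosomal RNA removed. Values of 18 of its 21 libraries were analysed, with 3 at E12, 3 at E16 and 2 at E20 (embryonic days 12, 16 and 20), 3 at D100 (100 days old), and hens of 1, 3 and 5 years in 3 libraries (Y1), 2 libraries (Y3) and 2 libraries (Y5), whereas D300 was not analysed here, as the 3 columns left carry no stage in their name and may or may not be its libraries. Embryos came from incubated eggs and were sexed by PCR, D100 birds were reared on a farm in Ya'an and the adult hens were collected in Lhasa. Age and place therefore cannot be told apart between the adult hens and the younger stages, Y1 against D100 included. No bird received an experimental treatment, and the libraries of Y3 and Y5 could be tied to their stage but not to a replicate number, so they are called a and b. Rows are named by Ensembl identifiers alone, and for 0 of them a gene symbol was found, so that neither the functions of the members nor the defining markers of the cerebrum and its cell types were analysed, and members are named by their identifier alone.

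In the embryonic chick forebrain, progenitor cells lining the ventricles divide and give rise to neurons, which migrate outward and send out axons. Towards hatching and after it, glial cells multiply, synapses form and axons become wrapped in myelin. mRNAs of dividing cells and of migrating young neurons are typically abundant in the early embryonic brain and scarce in the adult, although many genes of neuronal growth stay in use for life. The libraries are of whole tissue, so fewer cells of a type and less RNA per cell cannot be told apart for any member.

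The members were mostly well expressed. Their mean at E12 ranged between 1.38 and 1908 FPKM with a median of 41.3 FPKM, while the median of all mRNAs at E12 was 10.7 FPKM. This difference was partly fixed by the rule, as E12 had to be the highest stage of each member. Adding 1 to the FPKM also shrinks the margins of weakly expressed mRNAs. There were 22 members under 10 FPKM, 101 between 10 and 100 FPKM and 27 at 100 FPKM or more at E12. Of the 150 members, 147 had a mean of at least 1 FPKM over the 18 libraries, and 11 were listed at 0 in at least 1 library. All 14558 rows entered the tests given below, with no filter on low values. In the alternative with a mean of at least 1 FPKM, 13640 rows and 147 members were left.

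The margin ranged between 0.66 and 2.66 on the log2(FPKM+1) scale, with a median of 0.87. It was at least 1, a fold of about 2, in 48 members and at least 2 in 2 members. At the limit of the selection, the last 2 members taken had margins of 0.668 and 0.664, and the first 2 mRNAs left out had 0.662 and 0.660, so the edge of the group does not follow a step in the data. The distance between the lowest E12 library and the highest of the other libraries was narrower, between 0.0109 and 1.82 with a median of 0.404. The margin did not follow the level across the 150 members (Spearman's rho 0.0025 with the E12 mean, a description over genes measured in the same libraries). With the same conditions applied to the other stages, 116 mRNAs on these chromosomes peaked at E16, 133 at E20 and 52 at D100, and 31, 146 and 306 peaked at Y1, Y3 and Y5. A stage with 2 libraries (E20, Y3, Y5) meets the conditions more easily than a stage with 3. The counts therefore do not rank the stages.

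The members were found on 18 of the 19 chromosomes considered. Chromosome 2 carried 26 of them, or 2.20% of its 1183 mRNAs, and chromosome 1 carried 25, or 1.35% of its 1848 mRNAs. The highest share was on chromosome 18, with 10 of 287 mRNAs (3.48%), against 1.36% over all chromosomes considered. Chromosome 13 had 1 member and chromosome 15 had 0 among 338 mRNAs. Positions within the chromosomes were not used here.

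Libraries of the same stage differed in the level of the members at E16, E20 and Y3, and D100 replicate 3 was low over all mRNAs as well. E20 and Y3 have 2 libraries each, so which of the 2 stands apart cannot be told. In E16 replicate 3 the members were 0.39 above the mean of E16 replicates 1 and 2 (median difference, log2 scale), while the median over all mRNAs was -0.04. In E20 replicate 1 they were 0.43 above E20 replicate 2, with -0.03 over all mRNAs. In Y3 replicate b they were 0.35 above Y3 replicate a, with 0.04 over all mRNAs. E16 replicate 3 was thus the highest library of its stage for 67.3% of members and 41.2% of all mRNAs, E20 replicate 1 for 73.3% of members and 47.5% of all mRNAs, and Y3 replicate b for 73.3% of members and 53.2% of all mRNAs. D100 replicate 3 was low for members and for other mRNAs alike, with medians of -0.37 and -0.34 relative to D100 replicates 1 and 2, and its median over all mRNAs was 3.16, the lowest of the 18 libraries. What lies behind these differences between birds or libraries was not tested. E16 replicate 3, E20 replicate 1, Y3 replicate b and D100 replicate 3 were each left out. The values without them stand beside the median shares of E12 and the comparisons of adjacent stages below. Shares and sign counts without E20 replicate 2 or Y3 replicate a were not made. The other counts of stage order, closest stage, lowest stage and share of E12 were made with all 18 libraries.

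**Figure D1:**
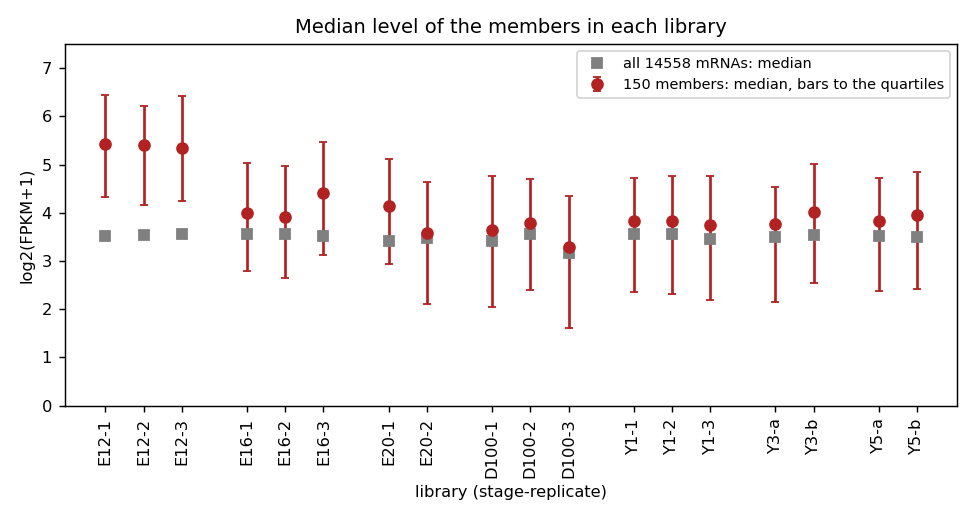
Median level of the 150 members (red, bars from the lower to the upper quartile) and of all 14558 mRNAs (grey squares) in each of the 18 libraries, on the log2(FPKM+1) scale, with stages in order of age along the x axis. The member medians of the 3 E12 libraries lie between 5.35 and 5.44 and those of the later libraries between 3.29 and 4.42, while the grey squares stay between 3.16 and 3.57.

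The median level of the members was 5.39 at E12 and, in embryos after it, 4.14 at E16 and 3.95 at E20 (log2(FPKM+1), stage means). After hatching it was 3.61 at D100, then 3.80, 3.87 and 3.96 in hens of Y1, Y3 and Y5. The median of all mRNAs was 3.53 at E12, 3.54 at E16, 3.43 at E20 and 3.37 at D100. In hens it was 3.51 at Y1, 3.52 at Y3 and 3.50 at Y5. The members therefore lay far above the median of all mRNAs at E12, and nearer to it but still above it afterwards. As a share of the E12 FPKM, the median member kept 45.5% at E16, 34.3% at E20 and 27.2% at D100, and then 28.3% at Y1, 33.1% at Y3 and 34.0% at Y5. Without E16 replicate 3 the share at E16 was 39.3%, and without E20 replicate 1 that at E20 was 27.4%. Without Y3 replicate b the share at Y3 was 26.6%, and without D100 replicate 3 that at D100 was 28.0%. Shares without E20 replicate 2 or Y3 replicate a were not computed. After median-ratio scaling the lowest share was at Y1, with 29.6%, next to 31.2% at D100. Summed over the 150 members, the FPKM made up 1.90% to 2.18% of all mRNA FPKM in the E12 libraries, 0.894% to 0.969% at E16, 0.607% to 0.610% at E20, 0.422% to 0.551% at D100 and 0.464% to 0.797% in the 7 adult libraries.

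Much of the decline lay between E12 and E16. At E16, 99 members were at or under 50% of their E12 FPKM and 17 at or under 25%. In the median member 56.2% of the distance between E12 and its lowest stage had been covered by E16 (quartiles 44.1% and 72.7%, log2 scale). The rule held every later stage mean below E12 by at least the margin. A fall by E16 was thus fixed by the choice of members, and its share is a description. Later on the decline was shallow, and 81 members had stage means in the order E12, E16, E20, D100 with each below the one before, while 1 member went on falling at every step to Y5. The first step of this order was fixed by the rule. Of all mRNAs, 55.4% were lower at E20 than at E16, and 57.0% lower at D100 than at E20. This order was not counted over all mRNAs, after scaling or without single libraries, so it is not shown to be particular to the members. At every later stage 57 members stayed at or under 50% of E12, and 4 stayed at or under 25%. Few members came near 0, and 22 had some stage at or under 10% of their E12 FPKM.

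The stage closest to E12 differed between members. It was E16 for 72 members, E20 for 13, D100 for 5 and an adult stage for 60, of which 20 were closest at Y1, 14 at Y3 and 26 at Y5. In the 72 members with E16 next, the median share of E12 FPKM kept was 51.9% at E16, 29.8% at E20 and 23.0% at D100, and among adults 23.8% at Y1, 24.2% at Y3 and 27.1% at Y5. These members declined through the embryonic stages and stayed low. In the 60 members with an adult stage next, it was 37.9% at E16, 34.3% at E20 and 27.2% at D100, and among adults 40.0% at Y1, 38.5% at Y3 and 44.3% at Y5. The median of this group was lowest at D100, and since the groups were formed from the same stage means, the difference between them is a description.

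The lowest stage was D100 for 56 members, Y1 for 36, Y3 for 19, Y5 for 19, E20 for 17 and E16 for 3. All 3 adult means lay above D100 in 65 members and below D100 in 24. D100 was low for mRNAs in general, with the lowest stage median over all mRNAs (3.37 on the log2(FPKM+1) scale). At Y1, 38.7% of members were lower than at D100, against 36.2% of all mRNAs. After scaling, 76 members were lower and 74 higher at Y1 than at D100, and 49.3% of all mRNAs were lower. Lowest stages and the position of the adult means relative to D100 were counted for the members as deposited only. They were not counted over all mRNAs, after scaling or without D100 replicate 3, so a low D100 is not shown to be particular to the members. The single library closest to E12 was an E16 library for 84 members, and for 64 of these it was E16 replicate 3. When the rule was applied without E16 replicate 3, it took 108 of the 150 members again.

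**Figure D2:**
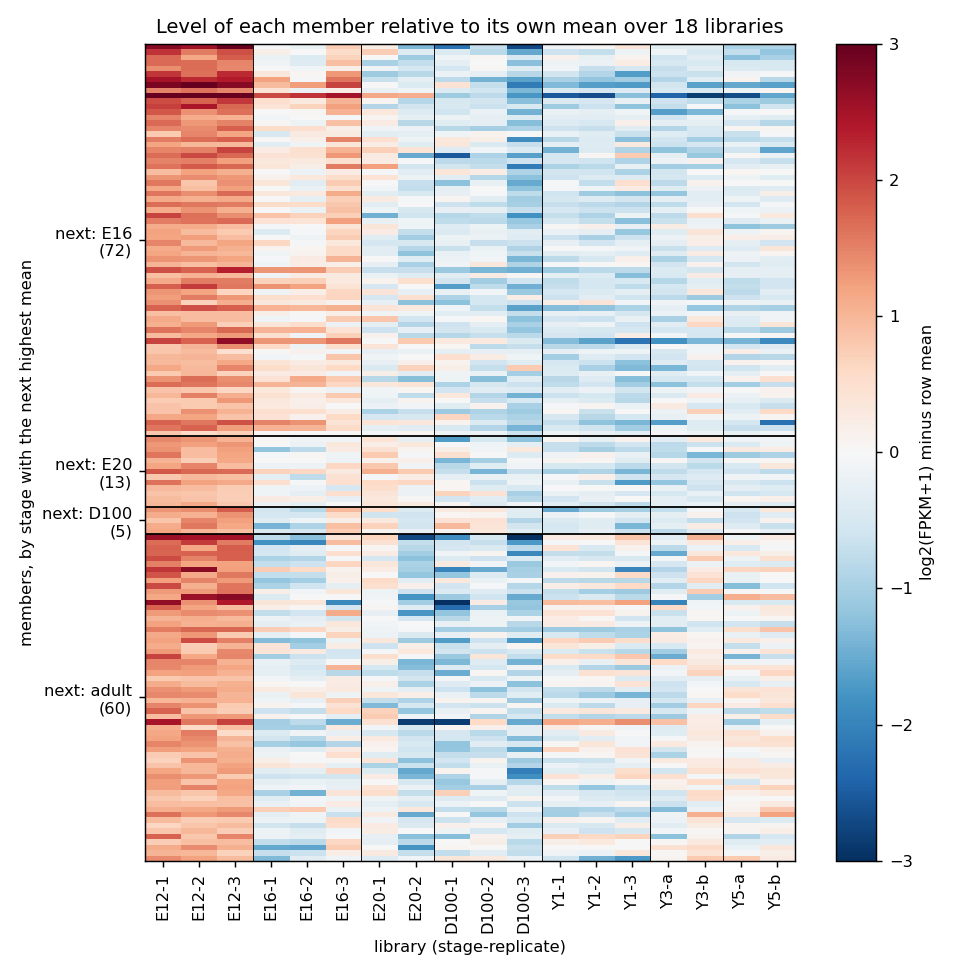
Level of each of the 150 members (rows) in the 18 libraries (columns), as log2(FPKM+1) minus the mean of the row, with red above and blue below that mean and colours ending at 3 in either direction. Rows are ordered by the stage with the next highest mean (E16 in 72, E20 in 13, D100 in 5, adult in 60) and then by margin, and the red of E12 is followed by paler columns, of which E16 replicate 3 is the darkest at E16.

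The 2 members with the largest margins were ENSGALG00000007419 on chromosome 9 and ENSGALG00000002223 on chromosome 8. ENSGALG00000007419 had levels of 6.05, 5.87 and 6.52 at E12, 3.28, 3.13 and 4.05 at E16, then 3.54 and 1.98 at E20, 1.11, 2.63 and 0.62 at D100, and after that 3.21, 3.36 and 3.68 at Y1, 3.00 and 3.00 at Y3 and 2.36 and 2.39 at Y5 (log2(FPKM+1), each library in replicate order). It kept 15% of its E12 mean of 71.1 FPKM at E16 and 3.22% at D100. ENSGALG00000002223 had 6.33, 6.21 and 6.23 at E12, 2.96, 2.48 and 4.12 at E16, then 4.38 and 1.00 at E20, 1.87, 3.24 and 0.00 at D100, and after that 3.98, 4.01 and 4.56 at Y1, 3.39 and 4.74 at Y3 and 3.60 and 3.98 at Y5. Its E12 libraries agreed closely, whereas the libraries of E20 and of D100 spread over a wider range than the later stage means did, and it is listed at 0 in D100 replicate 3.

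The member with the highest level, ENSGALG00000035079 on chromosome 2, averaged 1908 FPKM at E12. Its levels were 10.80, 10.74 and 11.12 at E12, 9.88, 9.83 and 9.52 at E16, then 9.22 and 9.16 at E20, 8.51, 8.33 and 8.42 at D100, and after that 8.73, 8.64 and 9.02 at Y1, 8.47 and 8.85 at Y3 and 9.40 and 9.42 at Y5. Here the embryonic stages and D100 followed each other without overlap, E16 replicate 3 was the lowest rather than the highest of its stage, and the Y5 libraries lay above those of Y1 and Y3.

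ENSGALG00000012834 on chromosome 1 kept the smallest share of E12 in adult hens. It had 6.67, 7.33 and 6.95 at E12, 5.41, 5.59 and 5.92 at E16, then 4.56 and 4.51 at E20, 2.36, 2.64 and 1.69 at D100, and after that 0.90, 0.78 and 2.18 at Y1, 1.04 and 0.58 at Y3 and 0.75 and 1.87 at Y5. Up to D100 each stage lay wholly below the one before it, and over the adult libraries 1.12% of the 128 FPKM of E12 was left. Across the 150 members the adult share of the E12 FPKM had a median of 33.6%, with 44 members at or under 25% and 140 at or under 50%.

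**Figure D3:**
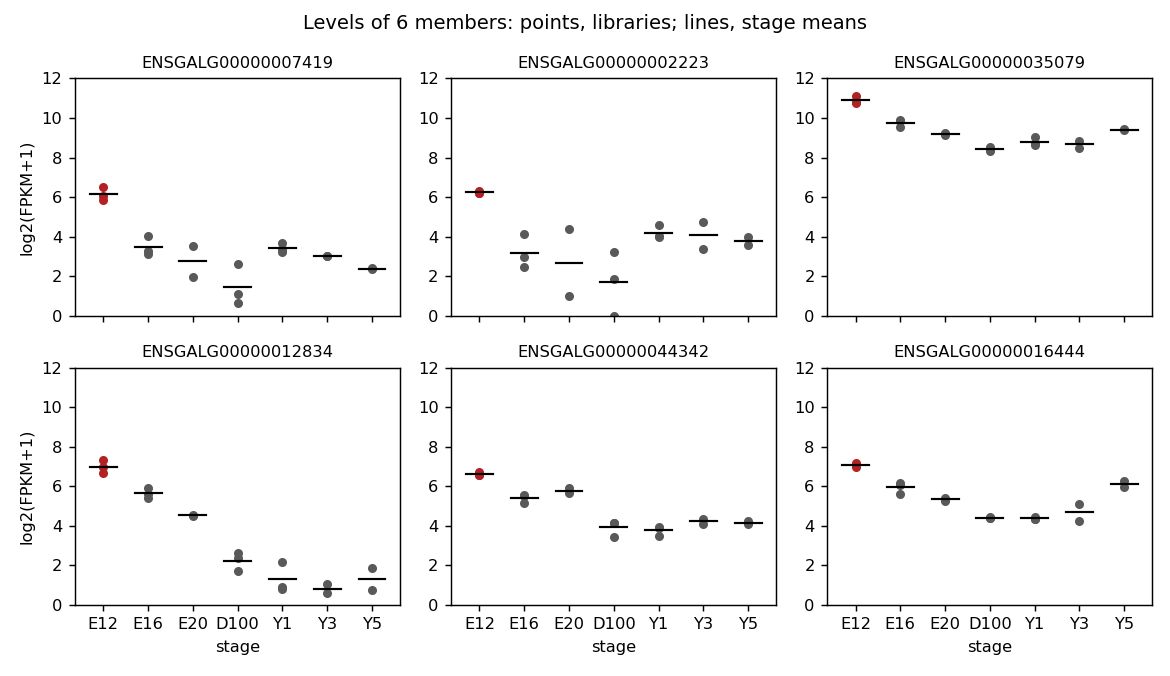
Levels of 6 members on the log2(FPKM+1) scale by stage, with a point for each library (E12 in red, later stages in grey) and a line at each stage mean. ENSGALG00000012834 falls stage by stage to a mean of 0.81 at Y3, whereas ENSGALG00000016444 is at 4.67 at Y3 and 6.12 at Y5.

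Adjacent stages after E12 were compared next, to ask whether the members kept changing. These stages were not set against each other by the rule, but it used their values, since it held every library below E12 and ranked rows by the distance between E12 and the highest later stage mean. It thereby limited how far a member could rise, so the calls below are not independent of the choice of members. Comparisons were made with limma over all 14558 mRNAs, and a member was called at a fold of at least 2 with a Bonferroni-adjusted p not above 0.05, or at the same fold with a Benjamini-Hochberg adjusted p not above 0.05. Comparisons next to each other share the libraries of a stage and are not independent.

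Between E16 and E20 a minority of members were called, all of them lower at E20. Under the Bonferroni adjustment 1 member was called, against 0.611% of all mRNAs in either direction. Under the Benjamini-Hochberg adjustment 11 members (7.33%) were lower at E20, against 5.32% of all mRNAs, and 0 were higher, against 2.9%. The share called lower was thus not far from that of all mRNAs. By the sign of the difference alone 115 members were lower and 35 higher at E20, with a median of -0.31 against -0.07 over all mRNAs. The counts were 96 and 54 without E16 replicate 3, 127 and 23 without E20 replicate 1, and 99 and 51 after median-ratio scaling of the libraries. Of all mRNAs, 55.4% were lower at E20 as deposited, and 55.3%, 54.6% and 50.1% in these settings in the same order. The sign counts were not made without E20 replicate 2. The member median of E20 replicate 2 was 3.58, while that of E20 replicate 1, 4.15, lay within the E16 libraries (3.92 to 4.42). Whether the members fell more than mRNAs in general without E20 replicate 2 was therefore not tested. Without E16 replicate 3, 11 members were called lower and 3 higher, and without E20 replicate 1, which leaves a lone E20 library assumed to vary like the others, 7 were called lower.

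The member called under both adjustments was ENSGALG00000025743 on chromosome 14, with 1.33 and 1.34 at E20, against 3.35, 3.34 and 2.78 at E16. The groups did not overlap, and it fell by 1.82 (SE 0.24, log2 scale, limma, Bonferroni-adjusted p = 0.0185). Its Bonferroni call was lost without E16 replicate 1 or 2 or without either E20 library, while its Benjamini-Hochberg call held in each of these. ENSGALG00000030887, also on chromosome 14, had 0.44 and 0.00 at E20, against 1.70, 2.40 and 2.07 at E16, a difference of -1.84 (SE 0.34, limma, Benjamini-Hochberg adjusted p = 0.00305). Their E12 means were 15.6 and 5.76 FPKM, on either side of the median of all mRNAs, and ENSGALG00000030887 is listed at 0 in 1 of the E20 libraries.

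Between E20 and D100, across hatching, the picture was similar. Under the Bonferroni adjustment 1 member was called, against 0.234% of all mRNAs. Under the Benjamini-Hochberg adjustment 8 members (5.33%) were lower at D100, against 3.1% of all mRNAs, and 0 were higher, against 2.28%. By sign, 111 members were lower and 39 higher at D100, with a median of -0.29 against -0.09 over all mRNAs, of which 57.0% were lower. The excess over all mRNAs was absent without E20 replicate 1, when the counts were 77 and 73 and 57.8% of all mRNAs were lower. The median was then -0.07 against -0.12 over all mRNAs, so the members no longer fell more than mRNAs in general. The member median of E20 replicate 2, 3.58, already lay within the D100 libraries (3.29 to 3.79), and that of E20 replicate 1 was 4.15. The sign counts were not made without E20 replicate 2. Without D100 replicate 3 there were 90 lower and 60 higher, with 49.6% of all mRNAs lower. After scaling there were 99 and 51 with 5 called, and 50.4% of all mRNAs were lower.

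ENSGALG00000044342 on chromosome 3 was called under both adjustments. It had 4.15, 3.45 and 4.15 at D100, against 5.91 and 5.64 at E20, and fell by 1.86 (SE 0.23, limma, Bonferroni-adjusted p = 0.00777). At E16 its libraries had 5.55, 5.48 and 5.12, so that it held its level through the late embryonic stages and was lower in every library after hatching, with 3.48 to 4.35 in adults. Its Bonferroni call was lost without either E20 library and after scaling, and its Benjamini-Hochberg call was not. ENSGALG00000012834, described above, had the largest fall of the members called, -2.30 (SE 0.42, limma, Benjamini-Hochberg adjusted p = 0.00559).

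Between D100 and Y1, which also differ in the place the birds came from, members moved both ways. No member was called under the Bonferroni adjustment, against 0.172% of all mRNAs, while 19 had an unadjusted p of at most 0.05 with the fold. Under the Benjamini-Hochberg adjustment 7 members (4.67%) were higher at Y1, against 3.35% of all mRNAs, and 2 (1.33%) were lower, against 1.77%. After scaling the same calls numbered 6 higher and 3 lower. By sign 92 members were higher and 58 lower at Y1, but 74 were higher and 76 lower after scaling, and 76 higher and 74 lower without D100 replicate 3. Of all mRNAs, 36.2%, 49.3% and 46.2% were lower at Y1, in the same order. The median difference of the members was 0.13, close to the 0.14 of all mRNAs, and after scaling these were -0.02 and 0.01. The number called was between 4 and 20 as each library was left out, with 4 without D100 replicate 1 or Y1 replicate 2, 5 without Y1 replicate 3 and 20 without D100 replicate 2.

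ENSGALG00000029195 on chromosome 13 rose the most of the members called, with 3.47, 3.58 and 3.36 at Y1, against 1.15, 2.20 and 1.11 at D100. The difference was 1.98 (SE 0.39, limma, Benjamini-Hochberg adjusted p = 0.00798), and the call held without each library in turn. Its Y3 and Y5 libraries, between 2.96 and 3.13, stayed near the Y1 level. ENSGALG00000007419, with the largest margin of all members, was higher by 1.96 (SE 0.45, limma, Benjamini-Hochberg adjusted p = 0.0167), a call lost without D100 replicate 1, Y1 replicate 2 or Y1 replicate 3. In the other direction, ENSGALG00000036497 on chromosome 2 had 2.34, 2.04 and 1.43 at Y1, against 3.95, 3.94 and 3.21 at D100. It fell by 1.77 (SE 0.31, limma, Benjamini-Hochberg adjusted p = 0.00493), held this call without each library in turn and remained between 1.75 and 2.29 at Y3 and Y5.

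Among adult hens few members passed the tests. Between Y1 and Y3, 0 members were called under the Bonferroni adjustment, against 0.00687% of all mRNAs. With the Benjamini-Hochberg adjustment 0 were lower, against 0.0275%, and 0 were higher, against 0.0206%, while limma gave 8 members an unadjusted p of at most 0.05 with the fold, 5 lower and 3 higher at Y3. Without Y3 replicate a, 1 member was called. By sign 84 were higher and 66 lower at Y3, which turned to 67 higher and 83 lower without Y3 replicate b. Of all mRNAs, 49.0% were lower at Y3, and 50.6% without Y3 replicate b. Sign counts without Y3 replicate a were not made.

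Between Y3 and Y5, 0 members were called under the Bonferroni adjustment, against 0.0481% of all mRNAs, with 5 at an unadjusted p of at most 0.05. By Benjamini-Hochberg adjustment 1 member (0.667%) was higher at Y5, against 0.522% of all mRNAs, and 0 were lower, against 0.206%. It was ENSGALG00000016444 on chromosome 3, with 5.96 and 6.28 at Y5, against 4.22 and 5.12 at Y3. The difference was 1.45 (SE 0.25, limma, Benjamini-Hochberg adjusted p = 0.0177). Its levels at Y1 were 4.35, 4.35 and 4.45 and at D100 4.40, 4.43 and 4.37, so that the Y5 libraries stood above all libraries between D100 and Y3 and kept 51.0% of the E12 FPKM. The call was lost without Y3 replicate a or either Y5 library. By sign 84 members were higher and 66 lower at Y5, 90 and 60 after scaling, and 105 and 45 without Y3 replicate b. Of all mRNAs, 51.8%, 49.2% and 50.6% were lower at Y5, in the same order. The sign counts were not made without Y3 replicate a, in which the members were lower than in b by a median of 0.35. Whether most members were higher at Y5 than in Y3 replicate b alone was therefore not tested.

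**Figure D4:**
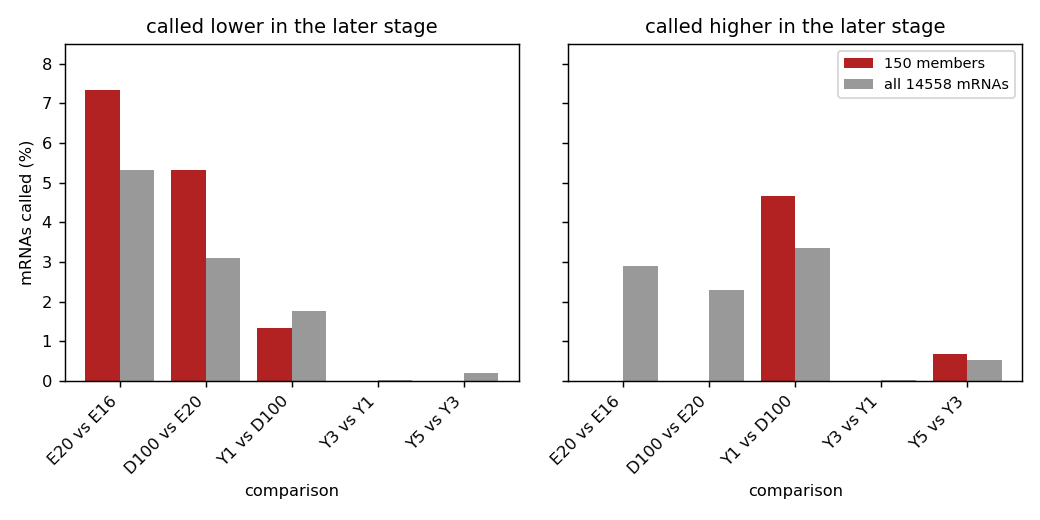
Share of the 150 members (red) and of all 14558 mRNAs (grey) called lower (left) and higher (right) in the later stage of each comparison, at a fold of at least 2 and a Benjamini-Hochberg adjusted p of at most 0.05 from limma. Members reach 7.33% lower at E20 vs E16 and 5.33% lower at D100 vs E20, next to 5.32% and 3.1% of all mRNAs, and no member was higher in these 2 comparisons.

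At E16, E20 and Y3, birds of the same stage differed more in the members than in the mRNAs as a whole, as a description. The median SD of a member was 0.34 at E16, 0.35 at E20 and 0.32 at Y3, next to 0.26, 0.24 and 0.25 over all mRNAs (log2 scale). It was 0.40 at D100 and 0.21 at Y1, next to 0.38 and 0.22 over all mRNAs, and 0.18 for both at E12 and 0.13 for both at Y5. The E12 spread of the members was limited by the rule, which required each E12 library to exceed every later library. E16 replicate 3 exceeded the mean of E16 replicates 1 and 2 by at least 1 in 24 members (16.0%), against 7.34% of all mRNAs. E20 replicate 1 exceeded E20 replicate 2 by at least 1 in 30 members (20.0%), against 4.52% of all mRNAs. These 2 deviations went together across the 150 members, with a Spearman's rho of 0.36, and as much across all 14558 mRNAs, with 0.35. The values are a description over genes that share their libraries. The deviation of D100 replicate 3 ran against that of E16 replicate 3, with a rho of -0.42 across members and -0.28 across all mRNAs, and that of Y3 replicate b had a rho of 0.05 with it across members. The rule used each of these libraries, since all had to lie below E12 and their stage means entered the margin. Whether the choice of members shaped these differences between birds was not tested.

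ENSGALG00000039553 on chromosome 2, ranked 3 by margin, shows the size of these differences. Its levels were 6.86, 7.28 and 6.75 at E12, 3.38, 3.23 and 6.11 at E16 and 5.65 and 4.46 at E20. E16 replicate 3 was thus near E12 and the other E16 birds were far below it. D100 libraries had 4.62, 4.50 and 3.47, and the 7 adult libraries were between 5.04 and 5.58, higher than E16 replicates 1 and 2. For such a member the order of the later stages depends on which birds are counted.

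**Figure D5:**
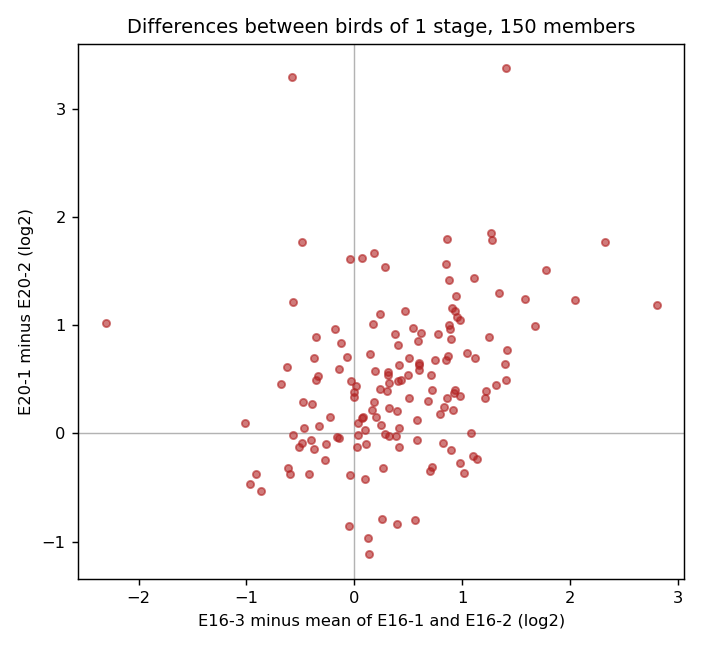
Differences between birds of 1 stage for the 150 members (points), with E16 replicate 3 minus the mean of E16 replicates 1 and 2 on the x axis and E20 replicate 1 minus E20 replicate 2 on the y axis, both on the log2 scale. The points centre at 0.39 and 0.43 rather than 0, and 72.7% lie right of 0 and 73.3% above 0.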

How the data were processed

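RNA of chicken cerebrum was sequenced as paired ends of 150 bp after removal of ribosomal RNA. The authors aligned reads with HISAT2 to Gallus_gallus-5.0, assembled transcripts with StringTie 1.3.3, computed FPKM with Cufflinks 2.2.1 and StringTie, kept mRNAs above an FPKM of 0.1 and deposited log2 values after adding 1. The counting error of a value is therefore unknown here, and changes of weakly expressed mRNAs are understated. The paper lists read numbers for each library, which were not used here. In the table used, 3 value columns without a stage in their name were not used, and neither were lncRNAs.

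Libraries were grouped by stage, and columns of Y3 and Y5 were assigned to the stage without a number. Tests used limma 3.58.1 in R 4.3.3, where 1 fit held 7 stage means over 18 libraries and a variance trend, which replaces the authors' DESeq2 on counts. Each difference is that of the later minus the earlier stage. The procedure was tested on simulated data. Other steps were run in Python 3.11.15 (pandas 2.3.3, numpy 2.4.6, matplotlib 3.10.9, scipy 1.17.1). Each library comes from a separate bird.

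The alternatives tried were Benjamini-Hochberg or no adjustment, median-ratio scaling, adding 0.1 in place of 1 to the FPKM, a minimum mean FPKM of 1, no variance trend, only the compared stages, a replicate block and leaving out each library. A fit of numbered libraries only, Benjamini-Hochberg counts under all alternatives, and sign counts after scaling or without single libraries were added after seeing the data. The members, gene lists and tests were chosen with earlier results of these data known. Gene lists, cell type markers and promoter motifs were not applied, as 0 identifiers matched a symbol. The naming rule (largest margins, highest E12 levels, largest changes called, extremes of the adult share) was narrowed for this reason to a few identifiers per comparison, and ENSGALG00000039553 was picked among these after its values were seen.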

Additional observations from a re-analysis of the deposited data

How the results depend on the processing

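The rule took 139 of the 150 members again with a pseudocount of 0.1, 140 after scaling, 147 with a mean FPKM of at least 1, and between 108 and 150 as each library was left out. Under the Bonferroni adjustment, the 1 member called in E20 vs E16 became 0 with a pseudocount of 0.1, with only the compared stages, with the replicate block and with numbered libraries only. The 1 member in D100 vs E20 became 0 after scaling, with only the compared stages and with the replicate block. As each library was left out, the Bonferroni counts were between 0 and 1 in E20 vs E16, in D100 vs E20 and in Y5 vs Y3. With Benjamini-Hochberg adjustment the counts of members called were 11, 8, 9, 0 and 1 in E20 vs E16, D100 vs E20, Y1 vs D100, Y3 vs Y1 and Y5 vs Y3, and at an unadjusted p they were 16, 11, 19, 8 and 5. With only the compared stages in the fit, the Benjamini-Hochberg counts were 1, 0, 2, 0 and 0, a fit with fewer birds behind the estimate of spread. After scaling they were 5 in D100 vs E20 and 2 in Y5 vs Y3. As each library was left out, they were between 7 and 14 in E20 vs E16, 2 and 8 in D100 vs E20, 4 and 20 in Y1 vs D100, 0 and 1 in Y3 vs Y1, and 0 and 2 in Y5 vs Y3. The cause of these changes was not tested.

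Each library comes from a separate bird, and replicate numbers were not taken to pair birds across stages. The deviations of same-numbered libraries correlated between -0.34 and 0.34, with 2 of 7 pairs above 0.1. At E20 the 2 libraries deviate from their mean by equal and opposite amounts, so part of these signs was fixed. The correlations therefore cannot show whether the numbers carry a shared batch. With the replicate block the Benjamini-Hochberg counts were 8 in E20 vs E16, 2 in D100 vs E20 and 4 in Y1 vs D100, and the Bonferroni counts were 0 in each. The replicate block could not be fitted for Y3 and Y5 because their columns carry no number of the labels.

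Of 146 alternative values for 12 comparisons of single members, 115 kept their direction and call, 31 kept the direction and lost the call, and 0 reversed. These 12 comparisons were picked as the largest changes called in the same data, so a reversal was unlikely from the start. No stage had more than 3 birds, which limits every test, and a stage left with a lone library was assumed to vary like the others. Promoter motifs were not run.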
